A study of Mus musculus with 11 samples.

Results

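The 10 genes described here are the transcription factor gene Nfe2l2, which encodes NRF2, 7 of its textbook target genes (Nqo1, Hmox1, Gclc, Gclm, Txnrd1, Srxn1 and Slc7a11), and G6pdx and Pgd, which encode the 2 NADPH-producing enzymes of the cytosolic pentose phosphate pathway. They were taken by gene symbol from a table of 22104 mouse genes, where all 10 were listed under their Ensembl identifiers, and all 10 passed the filter on low values, which left 14729 genes for testing. The cells were primary myoblasts, the dividing precursors of muscle fibres, from the tibialis anterior muscle of C57BL/6 mice of about 8 weeks. Bmal1-/- cells lacked the core clock transcription factor BMAL1 (gene symbol Arntl) and were kept for 6 h at 1% O2 (hypoxia, 3 libraries) or at 21% O2 (normoxia, 3 libraries), and wild-type cells were kept for 6 h at 1% O2 (3 libraries) or at 21% O2 (2 libraries). The medium of all 4 groups held 20% fetal bovine serum and basic fibroblast growth factor. The labels do not say which libraries came from separate animals or cultures. A p-value here sets a difference between groups against how far libraries differ within groups, which could be only a technical spread.

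NRF2 is held at a low level by KEAP1, an adaptor that brings it to the CUL3 ubiquitin ligase for degradation. Oxidants and electrophiles modify KEAP1, and NRF2 then enters the nucleus, pairs with a small MAF protein and binds antioxidant response elements beside genes for glutathione synthesis, thioredoxin cycling, quinone detoxification and NADPH supply. The oxidative arm of the pentose phosphate pathway makes the NADPH that glutathione reductase and thioredoxin reductase use, and Hmox1 is also known as a target of hypoxia-inducible factors and of the repressor BACH1. Because NRF2 is controlled mainly through its protein, its mRNA level does not measure its activity.

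RefSeq windows of 300 bases, from 250 before to 50 after an annotated start (build GRCm38.p6), were found for 8 of the 10 genes, and Hmox1 and Gclc had no entry. The core letters of the antioxidant response element, TGACNNNGC on either strand, occurred in 6 of the 11 windows of these 8 genes, 1 each in Nfe2l2, Gclm, Txnrd1, Srxn1, G6pdx and Pgd, against 12.4% of all 32851 windows in the table. The matches in Srxn1 and Pgd began 28 and 3 bases after the start and are not printed. Stretches around the match are printed for the 4 genes whose match ended before the start. They come from the regulator itself, a target that fell in hypoxia (Txnrd1), and 2 genes that did not pass the test there (Gclm and G6pdx). They run 5′ to 3′ on the gene's strand with the core in capitals. The core reads on the opposite strand in Gclm, Txnrd1 and G6pdx.
Nfe2l2, chr2:75704865-75704913, minus strand: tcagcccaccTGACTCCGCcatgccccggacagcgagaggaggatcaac
Gclm, chr3:122245393-122245461, plus strand: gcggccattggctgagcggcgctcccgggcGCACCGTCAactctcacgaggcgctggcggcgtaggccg
Txnrd1, chr10:82859084-82859152, plus strand: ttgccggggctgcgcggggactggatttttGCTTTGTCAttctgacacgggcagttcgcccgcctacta
G6pdx, chrX:74428899-74428967, minus strand: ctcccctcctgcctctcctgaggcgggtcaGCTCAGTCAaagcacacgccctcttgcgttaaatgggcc
The match began 240 bases before the start in Nfe2l2, 134 in Gclm, 92 in Txnrd1 and 57 in G6pdx. Nqo1 and Slc7a11 had none of the searched letters in their windows. The E-box letters CACGTG, the preferred site of BMAL1 and its partner CLOCK, were in 0 of the 11 windows, against 7.15% of all windows. The hypoxia response core, ACGTG or GCGTG on either strand, was in 7 of the 11 windows, from 5 genes, against 43.8% of all windows, and ACGTG also lies within CACGTG. A match describes letters in a window and is not a binding site. A window without a match does not show that the gene lacks the element, because only 250 bases before the start were searched.

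The targeted gene followed the genotype labels. Arntl had 128, 134 and 128 normalized counts in Bmal1-/- hypoxia and 109, 117 and 98.8 in Bmal1-/- normoxia, against 325, 328 and 322 in wild-type cells in hypoxia and 264 and 267 in wild-type cells in normoxia, without overlap. Recovered reads were 23027613 to 25731223 per library in Bmal1-/- hypoxia, 18707697 to 21138175 in Bmal1-/- normoxia, 24587342 to 33613328 in wild-type hypoxia and 19668258 to 21451760 in wild-type normoxia, so every hypoxia library was deeper than every normoxia library. All 7 myoblast markers were listed. They summed to 30644 to 31113 normalized counts per library in Bmal1-/- hypoxia and 30943 to 32576 in Bmal1-/- normoxia. In wild-type hypoxia the sum was 27825 to 29555, against 31330 to 32019 in wild-type normoxia, so every wild-type hypoxia library lay below all others. The 5 fibroblast markers summed to 1883 to 2153 in Bmal1-/- hypoxia and 1287 to 1585 in Bmal1-/- normoxia, against 2925 to 3425 in wild-type hypoxia and 2606 to 3095 in wild-type normoxia. In bulk RNA, fewer cells of a type and less RNA per cell cannot be told apart. Endothelial, leukocyte and Schwann cell markers each summed to at most 40 normalized counts in any library, and 2 of the 4 leukocyte markers were not listed. Bmal1-/- hypoxia library 3 was the highest of its 3 libraries for 10 of the 10 genes described, and wild-type normoxia library 1 was above library 2 for 10 of 10. Without Bmal1-/- hypoxia library 3, 5 of the 10 genes fell in Bmal1-/- hypoxia and 2 in wild-type hypoxia, in place of 4 and 1. Without wild-type hypoxia library 1 or 2, 0 fell in wild-type hypoxia, in place of 1. Leaving out a wild-type normoxia library leaves 1 in that group, and the calls that were lost then are given by gene below. The hypoxia-responsive genes Adm, Bnip3, Slc2a1 and Pdk1 all rose at 1% O2, by 1.86 to 3.11 on the log2 scale in Bmal1-/- cells and 1.95 to 3.33 in wild-type cells.

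Levels of different genes are compared as normalized counts per kb of annotated exon. This length joins all annotated exons of a gene, 13922 bases for Slc7a11 and 6447 for Pgd. It can exceed the length of a single transcript, and the order given here depends on it. Before division by length, Pgd averaged 1639 normalized counts in Bmal1-/- normoxia, above Nqo1 at 1224. Txnrd1 stood highest in every group, at 1368 ± 80.3 per kb in Bmal1-/- hypoxia, 1744 ± 59.9 in Bmal1-/- normoxia, 1450 ± 104 in wild-type hypoxia and 1721 ± 117 in wild-type normoxia (SD, n = 3, 3, 3 and 2). Slc7a11, the cystine importer, stood lowest in every group, at 76.7 ± 2.73 per kb in Bmal1-/- hypoxia, 86.1 ± 6.3 in Bmal1-/- normoxia, 80.4 ± 6.38 in wild-type hypoxia and 80.4 ± 5.73 in wild-type normoxia, and Pgd was the next lowest in all 4. Between them, Nfe2l2, Nqo1, Hmox1, G6pdx and Srxn1 held places 2 to 6, followed by Gclc and Gclm. Hmox1 changed place most: it held place 2 in both hypoxia groups, at 889 ± 42.9 per kb in Bmal1-/- cells and 951 ± 61.6 in wild-type cells, but place 4 in Bmal1-/- normoxia at 686 ± 20.2 and place 5 in wild-type normoxia at 602 ± 66.4. Several neighbours had overlapping libraries: Nqo1 with G6pdx and Gclc with Gclm in Bmal1-/- hypoxia, Nfe2l2 with Nqo1 and Hmox1 with G6pdx in Bmal1-/- normoxia, Hmox1 with Nfe2l2 and Gclm with Pgd in wild-type hypoxia, and Hmox1 with Srxn1 in wild-type normoxia.

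**Figure D1:**
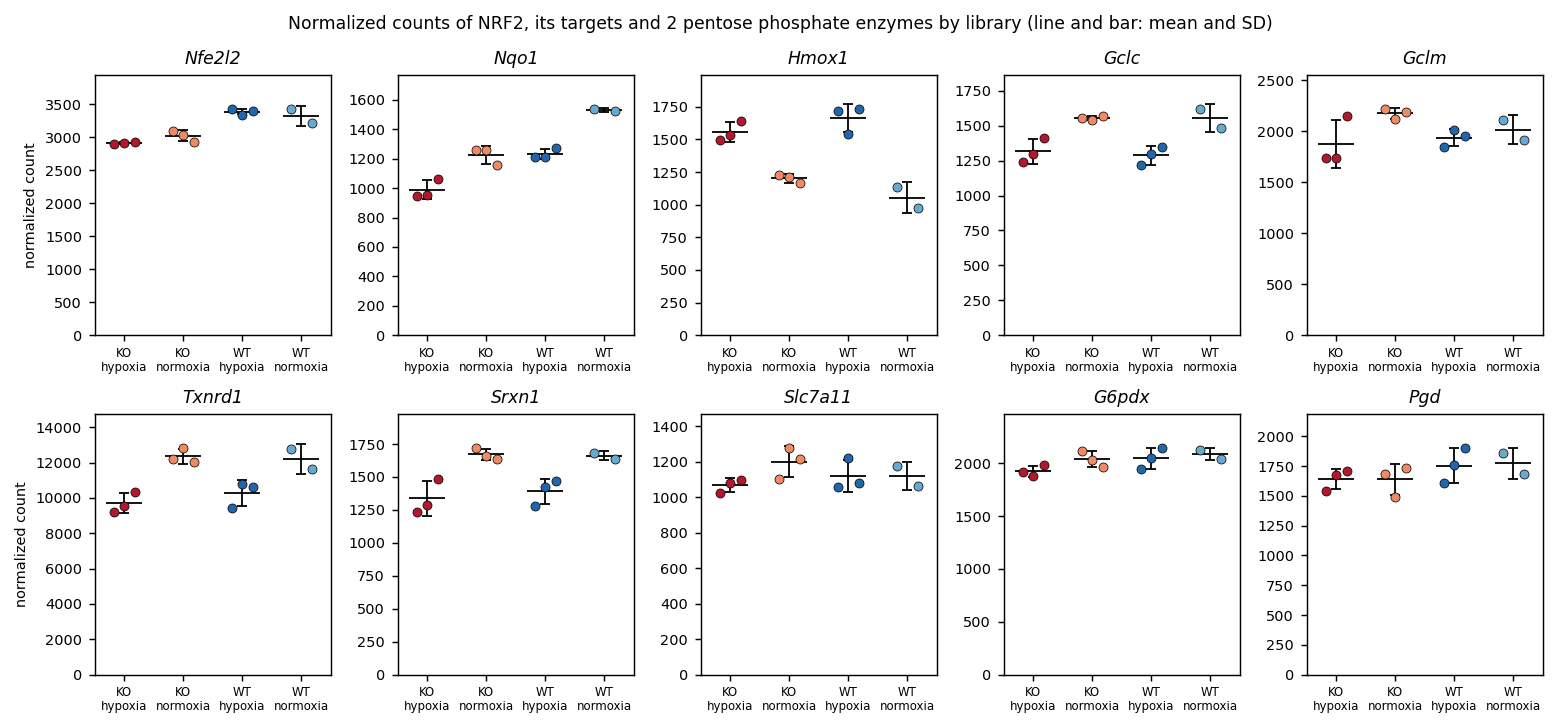
Each point is the normalized count of 1 library in 1 group (x axis), with the group mean and SD, and each panel is 1 gene with its own vertical axis starting at 0. Hmox1 is higher at 1% O2 in both genotypes, Nqo1 is lower both at 1% O2 and in Bmal1-/- cells, and the ranges of all 4 Pgd groups overlap.

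The first question was what 6 h at 1% O2 did to these genes in Bmal1-/- cells. Among the 10 genes, 1 rose (3.15% of all genes tested rose) and 4 fell (0.937% of all genes tested fell), where rose and fell mean a Benjamini-Hochberg adjusted p under 0.05 in limma. The one that rose was Hmox1, which encodes the inducible haem oxygenase, and those that fell were Nqo1, Gclc, Txnrd1 and Srxn1, enzymes of quinone reduction, glutathione synthesis, thioredoxin reduction and peroxiredoxin repair. The median log2 difference of the 10 genes was -0.19, beside -0.005 over all genes tested. The median is a description of the chosen genes.

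Hmox1 breaks down haem to biliverdin, carbon monoxide and iron. It had 1493, 1536 and 1639 normalized counts in Bmal1-/- hypoxia, against 1231, 1212 and 1163 in Bmal1-/- normoxia. Every hypoxia library lay above every normoxia library. The log2 difference was 0.37 (SE 0.07, 95% interval 0.23 to 0.52, adjusted p = 0.00585), a rise of 1.29-fold.

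Txnrd1, the cytosolic thioredoxin reductase, spends NADPH to keep thioredoxin reduced. It had 9214, 9548 and 10323 normalized counts in Bmal1-/- hypoxia, against 12224, 12835 and 12019 in Bmal1-/- normoxia, with all hypoxia libraries below all normoxia libraries. It fell by 0.35 on the log2 scale (SE 0.06, adjusted p = 0.00334). Srxn1, sulfiredoxin, which restores over-oxidized peroxiredoxins, had 1236, 1287 and 1488 in Bmal1-/- hypoxia, against 1721, 1658 and 1637 in Bmal1-/- normoxia. Its groups did not overlap and it fell by 0.33 on the log2 scale (SE 0.07, adjusted p = 0.0157). The Srxn1 call was lost without Bmal1-/- normoxia library 1 or Bmal1-/- hypoxia library 1 or 2, where the adjusted p was 0.0704 to 0.0737.

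Nqo1, the quinone reductase often used as a readout of NRF2, had 947, 956 and 1064 normalized counts in Bmal1-/- hypoxia, against 1261, 1257 and 1154 in Bmal1-/- normoxia. Its groups did not overlap, and it fell by 0.31 on the log2 scale (SE 0.06, adjusted p = 0.00741). Gclc, the catalytic subunit of glutamate-cysteine ligase, the first enzyme of glutathione synthesis, had 1241, 1295 and 1413 in Bmal1-/- hypoxia, against 1556, 1538 and 1570 in Bmal1-/- normoxia. It was lower in every hypoxia library and fell by 0.24 on the log2 scale (SE 0.06, adjusted p = 0.0372). This was the least stable of the 4: the adjusted p was 0.0527 to 0.144 without any 1 of 6 libraries (Bmal1-/- normoxia 1, 2 or 3, Bmal1-/- hypoxia 1 or 2, or wild-type hypoxia 2).

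Gclm, the modifier subunit of the same ligase, had 1740, 1737 and 2151 normalized counts in Bmal1-/- hypoxia, against 2224, 2118 and 2192 in Bmal1-/- normoxia. Hypoxia library 3 lay between the normoxia libraries and the other 2 lay below them, and the log2 difference of -0.22 (SE 0.07, adjusted p = 0.129) did not pass. Without Bmal1-/- hypoxia library 3 it was -0.325 with an adjusted p of 0.00787. Reads of Gclm may be shared with Gm17494, a transcript on the opposite strand whose exons overlap 4.7% of Gclm's exon bases, and with the pseudogene Gm6061 on the same strand, which overlaps 3.9%, since the use of strand in counting is not given in the sources used here.

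Slc7a11 had 1024, 1081 and 1097 normalized counts in Bmal1-/- hypoxia, against 1105, 1278 and 1214 in Bmal1-/- normoxia, a log2 difference of -0.17 (SE 0.07, 95% interval -0.32 to -0.01, adjusted p = 0.241) that did not pass although the groups did not overlap. Nfe2l2 itself had 2903, 2914 and 2921 in Bmal1-/- hypoxia, against 3102, 3032 and 2931 in Bmal1-/- normoxia. All its hypoxia libraries lay just below the normoxia ones, with a log2 difference of -0.05 (95% interval -0.14 to 0.03, adjusted p = 0.542).

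G6pdx, glucose-6-phosphate dehydrogenase, is the entry enzyme of the pentose phosphate pathway. It had 1920, 1880 and 1982 normalized counts in Bmal1-/- hypoxia, against 2117, 2031 and 1969 in Bmal1-/- normoxia, with overlapping groups and a log2 difference of -0.08 (95% interval -0.19 to 0.02, adjusted p = 0.423). Pgd, 6-phosphogluconate dehydrogenase, makes the second NADPH of the pathway. It had 1545, 1675 and 1708 in Bmal1-/- hypoxia, against 1687, 1493 and 1738 in Bmal1-/- normoxia, and its log2 difference was 0.00 (95% interval -0.15 to 0.16, adjusted p = 0.984). Exons of G6pdx share 418 bases, 13.6% of its exon length, with Ikbkg on the opposite strand, which had up to 2485 normalized counts. The retrogene copy G6pd2 had at most 1 read in a library.

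The same question in wild-type cells gave 1 gene that rose (1.7% of all genes tested rose) and 1 that fell (0.468% of all genes tested fell). Hmox1 had 1716, 1541 and 1737 normalized counts in wild-type hypoxia, against 1137 and 973 in wild-type normoxia. Every hypoxia library lay well above both normoxia libraries, and Hmox1 rose 1.58-fold (log2 difference 0.66, SE 0.07, 95% interval 0.50 to 0.82, adjusted p = 0.000141). Nqo1 had 1210, 1211 and 1271 in wild-type hypoxia, against 1541 and 1523 in wild-type normoxia, and fell by 0.32 on the log2 scale (SE 0.06, adjusted p = 0.0185). The Nqo1 groups stood far apart, but with 2 normoxia libraries the call was lost without wild-type normoxia library 1 or 2 or wild-type hypoxia library 1 or 2, where the adjusted p was 0.0628 to 0.131.

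Gclc, Txnrd1 and Srxn1 did not pass in wild-type cells, although each had all its hypoxia libraries below both normoxia libraries. Gclc had 1217, 1295 and 1351 normalized counts in wild-type hypoxia, against 1623 and 1481 in wild-type normoxia (log2 difference -0.27, SE 0.07, adjusted p = 0.0572). Txnrd1 had 9426, 10776 and 10625 in wild-type hypoxia, against 12782 and 11611 in wild-type normoxia (-0.25, SE 0.07, adjusted p = 0.0771). Srxn1 had 1282, 1420 and 1468 in wild-type hypoxia, against 1685 and 1638 in wild-type normoxia (-0.26, SE 0.08, adjusted p = 0.123). DESeq2 on the recovered reads called Gclc (adjusted p = 0.0182) and Txnrd1 (adjusted p = 0.0142) fallen.

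The other 5 genes had overlapping groups in wild-type cells. Gclm had 1851, 2009 and 1957 normalized counts in wild-type hypoxia, against 2116 and 1918 in wild-type normoxia (log2 difference -0.06, 95% interval -0.23 to 0.12). Slc7a11 had 1058, 1222 and 1080 in wild-type hypoxia, against 1176 and 1063 in wild-type normoxia, an interval of -0.17 to 0.17 on the log2 scale. Nfe2l2 had 3422, 3343 and 3391 in wild-type hypoxia, against 3435 and 3218 in wild-type normoxia, an interval of -0.07 to 0.12. The intervals of these genes and of the pentose phosphate genes cover 0. G6pdx had 1951, 2053 and 2148 in wild-type hypoxia, against 2130 and 2046 in wild-type normoxia (interval -0.14 to 0.09). Pgd had 1607, 1756 and 1904 in wild-type hypoxia, against 1863 and 1682 in wild-type normoxia (interval -0.19 to 0.16).

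**Figure D2:**
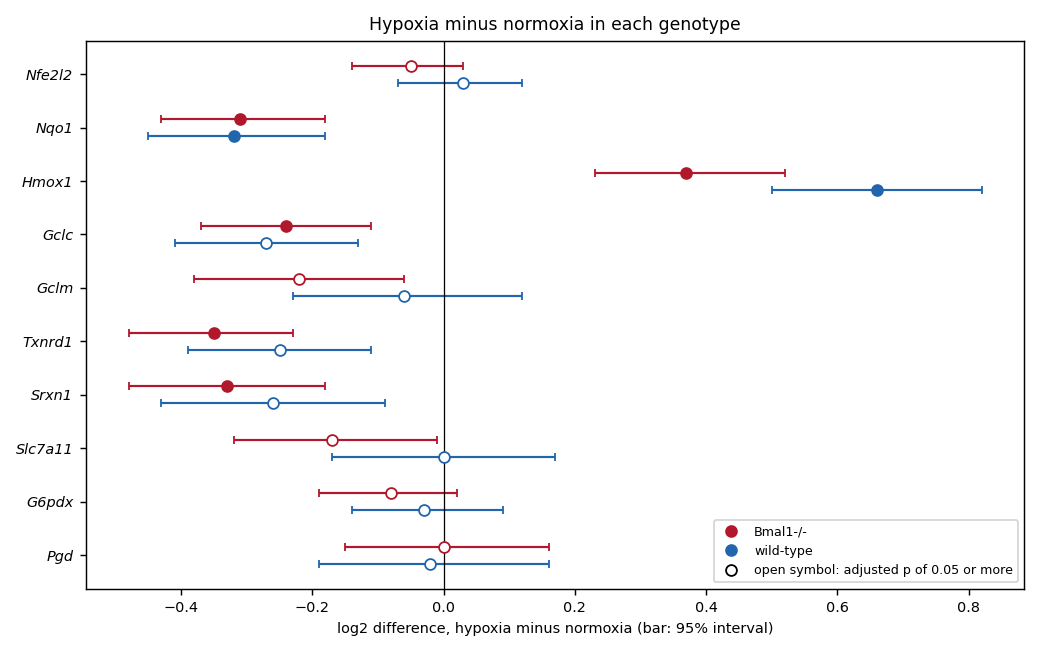
Points are log2 differences, hypoxia minus normoxia, for each gene in Bmal1-/- and in wild-type cells, with 95% intervals, and open symbols did not pass an adjusted p of 0.05. Hmox1 lies right of 0 in both genotypes (0.37 and 0.66), Nqo1, Gclc, Txnrd1 and Srxn1 lie left of it in both, and the intervals of G6pdx and Pgd cover 0.

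Whether the hypoxia effect differed between genotypes was tested as the Bmal1-/- effect minus the wild-type effect. None of the 10 genes passed with limma, edgeR or DESeq2 (0.00679% of all genes tested were higher and 0% were lower by limma). At an unadjusted limma p under 0.05 there were 784 of the 14729 genes tested, and this cut alone takes in a share of 0.05 of unchanged genes. Of the 10 genes only Hmox1 was under it with each of the 3 tools. Its difference was -0.29 on the log2 scale (SE 0.10, 95% interval -0.50 to -0.07, unadjusted p = 0.0126, adjusted p = 0.905). It was -0.401 without wild-type normoxia library 1 and -0.176 without wild-type normoxia library 2. The other 9 intervals all covered 0, from -0.18 to 0.19 for Nqo1 to -0.41 to 0.07 for Gclm. A gene that passed in one genotype alone, such as Txnrd1 or Srxn1, is therefore not shown to respond differently there. The comparisons of oxygen levels and of genotypes share libraries, so their values for 1 gene are not independent.

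Averaged over the genotypes, 1 of the 10 genes rose with hypoxia (4.89% of all genes tested rose) and 4 fell (2.56% of all genes tested fell). Hmox1 had a mean log2 difference of 0.52 (SE 0.05, adjusted p = 1.59e-05). Nqo1 fell by 0.31 (SE 0.04, adjusted p = 0.000442), Txnrd1 by 0.30 (SE 0.04, adjusted p = 0.000689), Srxn1 by 0.29 (SE 0.05, adjusted p = 0.00304) and Gclc by 0.26 (SE 0.04, adjusted p = 0.00288). All 5 calls held without any 1 of the 11 libraries. The 4 that fell lie within 0.05 of each other on the log2 scale, with changes of -16.2% to -19.4%. Gclm was at -0.14 (SE 0.06, adjusted p = 0.159) and passed without Bmal1-/- hypoxia library 3 (-0.190, adjusted p = 0.0145). Slc7a11 was at -0.08, G6pdx at -0.05, Nfe2l2 at -0.01 and Pgd at -0.01, with 95% intervals of -0.20 to 0.03, -0.13 to 0.02, -0.08 to 0.05 and -0.12 to 0.11. The sum of 3 pericyte and smooth muscle markers, which was nearly all counts of the smooth muscle actin gene Acta2, was lower at 1% O2: it was 24531 to 24991 in Bmal1-/- hypoxia, against 27805 to 28080 in Bmal1-/- normoxia. In wild-type hypoxia it was 27599 to 28841, against 31203 to 32706 in wild-type normoxia. Acta2 fell by 0.19 on the log2 scale in this mean (adjusted p = 0.000253), whereas the other 2 markers had differences of 0.17 (Rgs5, adjusted p = 0.161) and 0.36 (Myh11, adjusted p = 0.61). Myh11 had few counts, with group means of 5.42 to 10.7. The fibroblast marker sum given above was higher in Bmal1-/- hypoxia than in Bmal1-/- normoxia without overlap. Most of that sum was Col1a1, a fibroblast collagen gene, at 1537 ± 148 normalized counts in Bmal1-/- hypoxia and 1041 ± 148 in Bmal1-/- normoxia. Col1a1 rose by 0.57 in Bmal1-/- hypoxia (adjusted p = 0.0189) and by 0.40 in the mean hypoxia effect (adjusted p = 0.0185). The other 4 fibroblast markers passed in neither. In Bmal1-/- hypoxia 4 of the 5 were higher and 1, Lum, was lower (-0.36). Lum had few counts, 5.26 ± 3.99 in Bmal1-/- hypoxia and 5.55 ± 0.649 in Bmal1-/- normoxia, and its 95% interval was -1.45 to 0.73. Of the 7 myoblast markers, 1 fell and 0 rose in Bmal1-/- hypoxia, where 3 differences were below 0 and 4 above. In the mean hypoxia effect 1 fell and 0 rose, with 6 below 0 and 1 above. The part of all these markers in the hypoxia differences was not tested.

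Loss of BMAL1 was compared at each oxygen level. At 21% O2, 0 of the 10 genes were higher in Bmal1-/- cells (3.44% of all genes tested rose) and 1 was lower (5.66% of all genes tested fell). At 1% O2, 0 were higher (3.33% of all genes tested rose) and 2 were lower (5.61% of all genes tested fell). edgeR and DESeq2 also called 0 higher at either level, and at an unadjusted p under 0.05 the count that was higher was 1 at 21% O2 (Hmox1) and 0 at 1% O2, with each of the 3 tools. Of the 14729 genes tested, 3451 at 21% O2 and 3089 at 1% O2 were under this cut by limma, in either direction. The genes that fell were Nqo1 at both levels and Nfe2l2 at 1% O2.

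Nqo1 in hypoxia had 947, 956 and 1064 normalized counts in Bmal1-/- cells, against 1210, 1211 and 1271 in wild-type cells, and in normoxia 1261, 1257 and 1154 in Bmal1-/- cells, against 1541 and 1523 in wild-type cells. The genotypes did not overlap at either oxygen level. Nqo1 fell by 0.32 on the log2 scale in hypoxia (SE 0.06, 95% interval -0.44 to -0.19, adjusted p = 0.00274) and by 0.32 in normoxia (SE 0.06, 95% interval -0.46 to -0.19, adjusted p = 0.00573). Bmal1-/- cells at 21% O2 thus had about as much Nqo1 mRNA, 1224 ± 60.7, as wild-type cells at 1% O2, 1231 ± 34.8 (SD, n = 3 each), and these groups overlapped. The normoxia call was lost without wild-type normoxia library 1, where the adjusted p was 0.0504.

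Nfe2l2 in hypoxia had 2903, 2914 and 2921 normalized counts in Bmal1-/- cells, against 3422, 3343 and 3391 in wild-type cells. The groups did not overlap, and Nfe2l2 fell by 0.22 on the log2 scale, 14% (SE 0.04, 95% interval -0.30 to -0.13, adjusted p = 0.00288). In normoxia it had 3102, 3032 and 2931 in Bmal1-/- cells, against 3435 and 3218 in wild-type cells, without overlap but with a log2 difference of -0.14 (SE 0.04, adjusted p = 0.0709) that did not pass. Averaged over the oxygen levels, 0 of the 10 genes were higher in Bmal1-/- cells (7.39% of all genes tested rose) and 2 were lower (9.8% of all genes tested fell): Nfe2l2 by 0.18 (SE 0.03, adjusted p = 0.000844) and Nqo1 by 0.32 (SE 0.04, adjusted p = 0.000128). For this mean, limma, edgeR and DESeq2 each had 0 of the 10 higher at an unadjusted p under 0.05, a cut that 4422 of the 14729 genes tested met in either direction by limma. Both calls held without any 1 library.

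Hmox1 had genotype differences of opposite sign at the 2 oxygen levels and passed at neither. In hypoxia it had 1493, 1536 and 1639 normalized counts in Bmal1-/- cells, against 1716, 1541 and 1737 in wild-type cells, with overlap and a log2 difference of -0.10 (SE 0.07, adjusted p = 0.47). In normoxia it had 1231, 1212 and 1163 in Bmal1-/- cells, against 1137 and 973 in wild-type cells, without overlap and with a log2 difference of 0.19 (SE 0.07, 95% interval 0.03 to 0.35, adjusted p = 0.136). The normoxia difference was 0.304 without wild-type normoxia library 1 and 0.079 without wild-type normoxia library 2.

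The remaining 7 genes did not pass between genotypes at either oxygen level. Their log2 differences in hypoxia ran from -0.09 in G6pdx and Pgd to 0.03 in Gclc, and in normoxia from -0.11 in Pgd to 0.11 in Gclm. All groups overlapped except Gclm in normoxia, which was higher in each Bmal1-/- library (adjusted p = 0.461). Averaged over oxygen, the 95% intervals were -0.08 to 0.11 for Gclc, -0.09 to 0.15 for Gclm, -0.13 to 0.06 for Txnrd1, -0.14 to 0.09 for Srxn1 and -0.10 to 0.13 for Slc7a11, and each leaves out a fall as large as that of Nqo1. The interval of G6pdx was -0.14 to 0.02 and that of Pgd was -0.22 to 0.02. These 2 also leave out a fall of that size. The fibroblast markers were lower in Bmal1-/- cells in all 5 of 5 genes on average over oxygen (Pdgfra by 1.33 on the log2 scale, adjusted p = 1.02e-09), and their part in the lower Nqo1 and Nfe2l2 was not tested. Acta2 was also lower in Bmal1-/- cells, by 0.19 (adjusted p = 7.73e-05), while the other 2 pericyte and smooth muscle markers had differences of 0.18 (Rgs5, adjusted p = 0.0992) and 0.03 (Myh11, adjusted p = 0.972). Myh11 had few counts, as given above. Of the 7 myoblast markers, Myf5 was higher in Bmal1-/- cells by 0.55 (adjusted p = 6.33e-06) and Itga7 by 0.16 (adjusted p = 0.00759). The other 5 did not pass, and the part of these markers was not tested.

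**Figure D3:**
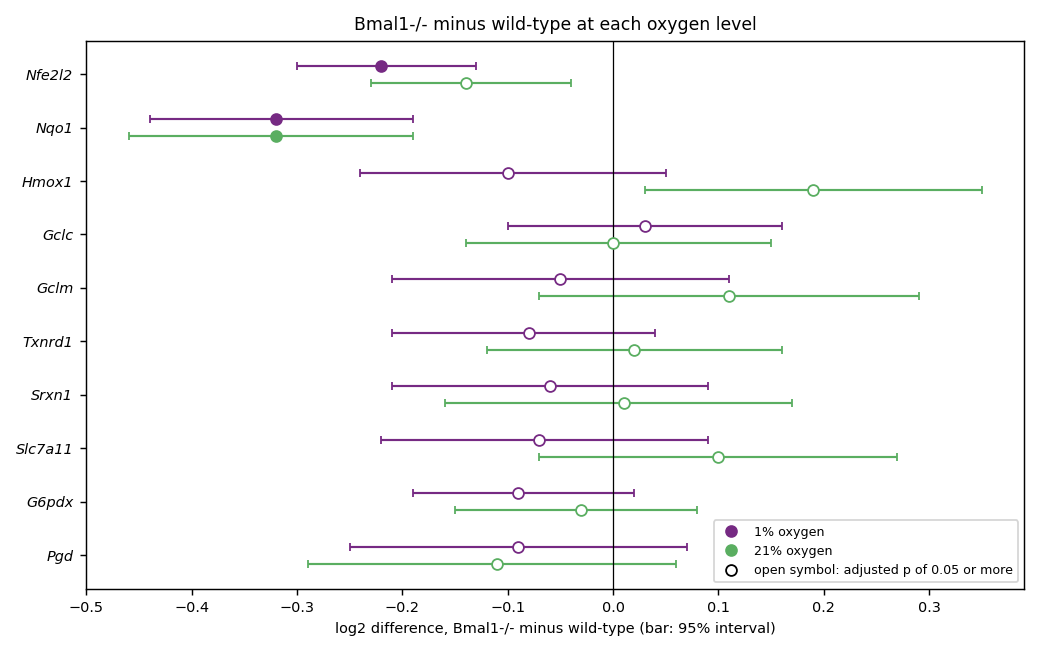
Points are log2 differences, Bmal1-/- minus wild-type, for each gene at 1% and at 21% O2, with 95% intervals, and open symbols did not pass an adjusted p of 0.05. Nqo1 sits at -0.32 at both oxygen levels, Nfe2l2 at -0.22 and -0.14, and Hmox1 is on opposite sides of 0.

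Genes around this set were read from 7 lists of 59 genes, all of which were tested. The lists were chosen with earlier results of these data known, so the shares below only describe the chosen genes. In Bmal1-/- hypoxia 4 of the 59 rose and 3 fell (6.78% and 5.08%, against 3.15% and 0.937% of all genes tested), and in wild-type hypoxia 2 rose and 1 fell (3.39% and 1.69%, against 1.7% and 0.468%). Between genotypes 1 rose and 9 fell at 1% O2 (1.69% and 15.3%, against 3.33% and 5.61%), and 1 rose and 11 fell at 21% O2 (1.69% and 18.6%, against 3.44% and 5.66%). In the difference of hypoxia effects 0 of the 59 passed with limma, edgeR or DESeq2. At an unadjusted limma p under 0.05 there were 2 above and 3 below 0, beside 784 of the 14729 genes tested. The lists are described below by the effects averaged over genotypes or oxygen levels, in which 3 of the 59 rose and 9 fell with hypoxia (5.08% and 15.3%, against 4.89% and 2.56% of all genes tested). In Bmal1-/- cells 6 rose and 15 fell (10.2% and 25.4%, against 7.39% and 9.8%). The share that rose with hypoxia was thus near that of all genes tested. The median log2 differences of the 59 were -0.05 and -0.04, beside -0.003 and 0.006 over all genes tested. Where limma called 0 genes of a list in a direction in these averaged effects, edgeR and DESeq2 also called 0, except for 1 pentose phosphate and NADPH gene that DESeq2 called fallen with hypoxia. Counts at an unadjusted p under 0.05 stand beside 3213 of the 14729 genes tested with hypoxia and 4422 between genotypes, in either direction by limma.

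Of 9 genes that control NRF2, 2 rose and 2 fell with hypoxia. Maff and Mafk, both small MAF partners that bind DNA with NRF2, moved in opposite directions. Maff averaged 319 ± 19 normalized counts in Bmal1-/- hypoxia, against 247 ± 4.64 in Bmal1-/- normoxia, and 416 ± 2.26 in wild-type hypoxia, against 308 ± 29 in wild-type normoxia (SD, n = 3 except 2 in wild-type normoxia), a rise of 0.40 on the log2 scale (adjusted p = 0.000565). Mafk fell by 0.31 (adjusted p = 0.00137), and Sqstm1, the autophagy receptor that competes for KEAP1, fell by 0.13 (adjusted p = 0.0163; 0.071 without wild-type normoxia library 1). Keap1 rose by 0.21 (adjusted p = 0.0388), a call lost without any 1 of 8 libraries, with an adjusted p up to 0.184. In Bmal1-/- cells 3 of the 9 fell and 1 rose. Maff fell by 0.35 (adjusted p = 0.0007), Sqstm1 by 0.17 (adjusted p = 0.00139) and Keap1 by 0.23 (adjusted p = 0.0125, a call lost without wild-type normoxia library 1). Bach1, whose product is the repressor of Hmox1 named above, rose by 0.14 (adjusted p = 0.0259), a call lost without any 1 of 6 libraries.

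In glutathione metabolism, 0 of 11 genes rose with hypoxia (0 also at an unadjusted p under 0.05) and 2 fell. Chac1, which degrades glutathione, fell by 0.31 (adjusted p = 0.0119; 0.0563 without wild-type normoxia library 1), and Gpx1, a glutathione peroxidase, fell by 0.12 (adjusted p = 0.0249), a call lost without any 1 of 4 libraries (adjusted p up to 0.115). In Bmal1-/- cells 1 rose and 4 fell. The 1 that rose was Chac1, by 0.27 (adjusted p = 0.0121), a call lost without wild-type normoxia library 2. Gsta4, a glutathione transferase for lipid aldehydes, averaged 231 ± 36.2 normalized counts in Bmal1-/- hypoxia and 278 ± 23.2 in Bmal1-/- normoxia, against 383 ± 2.56 in wild-type hypoxia and 364 ± 41.3 in wild-type normoxia, a mean fall of 0.56 (adjusted p = 0.000234). Gss, glutathione synthetase, which completes the tripeptide that Gclc and Gclm begin, fell by 0.27 (adjusted p = 0.00521), and Gpx4 fell by 0.12 (adjusted p = 0.00898).

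The thioredoxin and peroxiredoxin list of 8 genes had 0 risen genes with hypoxia or in Bmal1-/- cells (1 and 2 at an unadjusted p under 0.05). In hypoxia 1 fell, Prdx6 (fell by 0.14, adjusted p = 0.015; 0.0823 without wild-type normoxia library 1), and in Bmal1-/- cells 1 fell, Prdx5 (fell by 0.20, adjusted p = 0.00137). Of 6 haem and ferritin genes, 0 rose with hypoxia (1 at an unadjusted p under 0.05) and 2 fell, while Hmox1 rose. Blvrb, a biliverdin reductase, fell by 0.20 (adjusted p = 0.0106), and Fech, which puts iron into haem, fell by 0.20 (adjusted p = 0.00508). In Bmal1-/- cells Blvrb fell by 0.27 (adjusted p = 0.000426) and Fech rose by 0.11 (adjusted p = 0.0497), a call lost without any 1 of 9 libraries, with no filter, with TMM or upper quartile scaling and with DESeq2.

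Among 8 other NRF2 targets, 1 rose and 0 fell with hypoxia (1 lower at an unadjusted p under 0.05), and 0 rose (0 also at an unadjusted p under 0.05) and 4 fell in Bmal1-/- cells. Ephx1, microsomal epoxide hydrolase, averaged 404 ± 31.9 normalized counts in Bmal1-/- hypoxia and 461 ± 29.2 in Bmal1-/- normoxia, against 675 ± 47.4 in wild-type hypoxia and 697 ± 2.67 in wild-type normoxia. It fell by 0.67 on the log2 scale (adjusted p = 2.01e-06), the lowest mean genotype difference of the 59 genes. Abcc4, an export pump, fell by 0.52 (adjusted p = 0.00248). Ugdh, which makes UDP-glucuronate, rose by 0.21 with hypoxia (adjusted p = 0.00018) and fell by 0.15 in Bmal1-/- cells (adjusted p = 0.00107).

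The rest of the pentose phosphate and NADPH list held 11 genes, and 0 rose and 0 fell with hypoxia (1 higher and 2 lower at an unadjusted p under 0.05). In Bmal1-/- cells 1 rose and 2 fell. Tkt, transketolase of the non-oxidative arm, averaged 1628 ± 82.2 normalized counts in Bmal1-/- hypoxia and 1537 ± 28.7 in Bmal1-/- normoxia, against 1953 ± 31 in wild-type hypoxia and 2084 ± 15.5 in wild-type normoxia, a mean fall of 0.35 (adjusted p = 7.47e-06). H6pd, which runs the first pathway steps inside the endoplasmic reticulum, averaged 1045 ± 31.3 in Bmal1-/- hypoxia and 1060 ± 67.1 in Bmal1-/- normoxia, against 1446 ± 10.3 in wild-type hypoxia and 1431 ± 21.1 in wild-type normoxia. It fell by 0.45 (adjusted p = 2.39e-06). Both calls held without any 1 library, whereas the cytosolic G6pdx and Pgd did not pass. Prps1, which makes phosphoribosyl pyrophosphate from the pathway's ribose, rose by 0.12 (adjusted p = 0.0434), a call lost without any 1 of 8 libraries, with no filter, with TMM scaling and with DESeq2.

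Slc7a11 is also a textbook target of ATF4, the stress-response factor of amino acid shortage. Of 6 ATF4 genes, 0 rose with hypoxia (1 at an unadjusted p under 0.05) and 2 fell. Atf4 fell by 0.13 (adjusted p = 0.0298) and Sesn2 by 0.25 (adjusted p = 0.0281), and these calls were lost without any 1 of 6 and of 4 libraries, up to adjusted p of 0.121 and 0.103. In Bmal1-/- cells 2 rose and 0 fell (0 also at an unadjusted p under 0.05): Atf4 rose by 0.14 (adjusted p = 0.00707) and Asns by 0.13 (adjusted p = 0.0284, lost without any 1 of 7 libraries). The 5 fibroblast markers and Acta2 were lower in Bmal1-/- cells, as given above, and their part in the lower list genes was not tested.

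**Figure D4:**
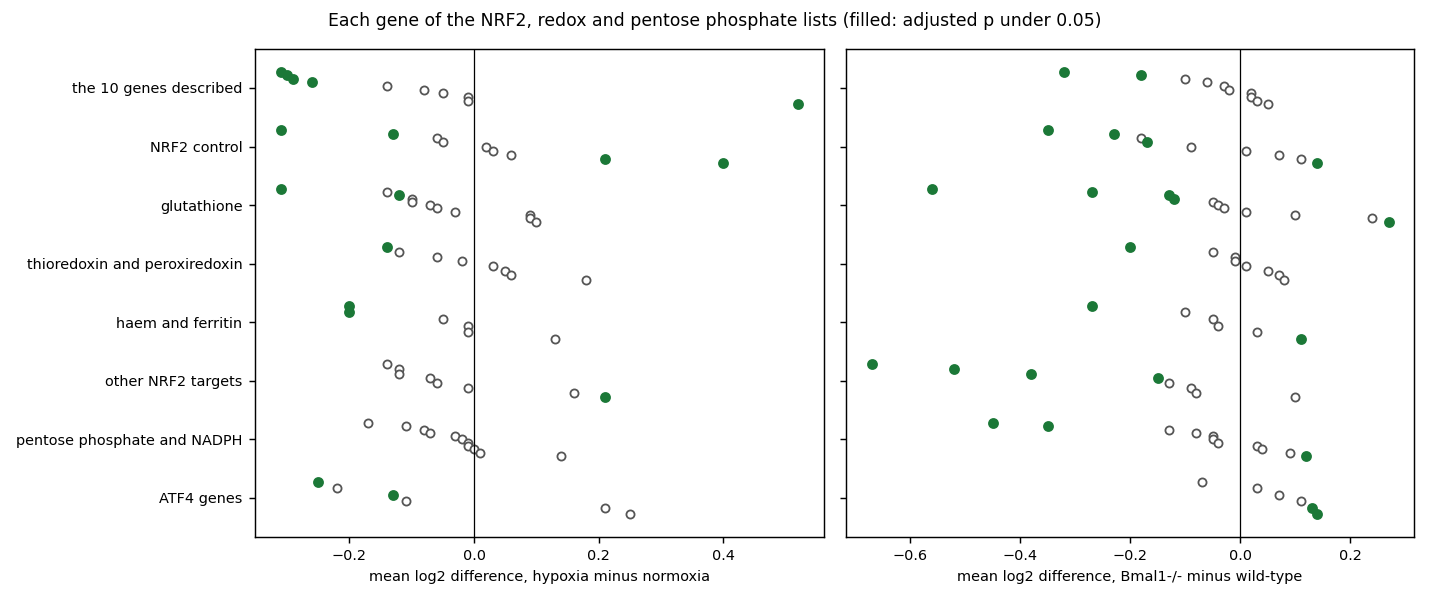
Each point is 1 gene of 1 list (rows), at its mean log2 difference with hypoxia (left) and in Bmal1-/- cells (right), and filled points passed an adjusted p of 0.05. Hmox1 is the point furthest right in the left panel (0.52), and in the right panel Ephx1 (-0.67) and Gsta4 (-0.56) lie furthest left.

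The genes whose pattern over the 11 libraries was most like that of 3 members were found by the root mean square difference of centred log2 values among 10714 genes. For Hmox1 they were Ccdc58 (0.093), Msl3l2 (0.096) and Aldoa (0.101), where the median gene was at 0.297. Aldoa averaged 32807 normalized counts in Bmal1-/- hypoxia, against 22973 in Bmal1-/- normoxia, and 32422 in wild-type hypoxia, against 22050 in wild-type normoxia. For Nfe2l2 they were Ass1 (0.025), Sh3glb2 (0.033) and Sri (0.035), with the median gene at 0.156. Ass1 averaged 3357 normalized counts in Bmal1-/- hypoxia and 3414 in Bmal1-/- normoxia, against 3779 in wild-type hypoxia and 3717 in wild-type normoxia, the same order of genotypes as Nfe2l2. For G6pdx they were Klf10 (0.033), Ubn1 (0.034) and Gtf3a (0.035), with the median gene at 0.134, and this likeness means little because G6pdx itself varied by only 0.060. These distances are descriptions and were not tested.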

How the data were processed

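Total RNA of 11 libraries was made with a stranded total RNA kit, per the labels. The values deposited by the authors are a signal: each library's read counts were scaled by its own size factor, and undoing that scaling returned whole reads (within 0.01) for 100% of the table. The submitters' processing notes name bcl2fastq, STAR, Picard, HTSeq, RSEM, DESeq2 and the mm10 build. Which counter made the table, its versions and its use of strand are not given in the sources used here. The table had 0 unused columns. A symbol was found for 21805 of 22104 identifiers, and gene spans came from GENCODE for GRCm38.

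Values were log2-transformed after adding 1, which understates changes of low genes. The 14729 genes that reached a value of 10 in 2 or more libraries were fitted with limma 3.58.1 (R 4.3.3) as 4 groups with a variance trend, 7 residual and 6.35 prior degrees of freedom. Tests were two-sided and adjusted by Benjamini-Hochberg over all genes tested. The fit was also run on simulated counts with genes shifted upward in Bmal1-/- hypoxia alone, so falls like those reported here were not checked. edgeR 4.0.16 and DESeq2 1.42.0 were run on the recovered reads, with DESeq2 also one of the tools in the authors' notes. The fit averages both genotypes or both oxygen levels where a mean effect is given. All 10 genes were named. Of each wider list, at most 3 called genes per comparison with the smallest adjusted p were named. Keap1 for the mean hypoxia effect, and Bach1 and Chac1 for the mean genotype effect, were outside this rule and were added after their values were seen. Likeness was limited to genes with a mean of at least 50 and a symbol that is not a predicted one. The 10 genes and the lists were chosen with earlier results of these data known.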

Additional observations from a re-analysis of the deposited data

How the results depend on the processing

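Of 17 called values of the 10 genes, none changed sign over 20 other settings, and 319 of 333 recomputed values kept their call. The 1 gene fallen in wild-type hypoxia became 2 with a mean of at least 50, 2 with upper quartile scaling and 3 with DESeq2. Leaving out 1 library gave 2 to 5 genes fallen in Bmal1-/- hypoxia, 0 to 2 in wild-type hypoxia, 0 to 1 in Bmal1-/- against wild-type normoxia and 4 to 5 for the mean hypoxia effect. No fit left a group without a library, and a lone wild-type normoxia library was assumed to vary like the other groups. Sign changes were limited to uncalled values near 0. TMM scaling gave log2 differences of 0.008 for Slc7a11 in wild-type hypoxia (0.002 with edgeR and 0.002 with DESeq2), -0.003 for Gclc between genotypes in normoxia and 0.001 for Pgd in the mean hypoxia effect, and upper quartile scaling gave -0.005 for Pgd in Bmal1-/- hypoxia. Leaving out 1 library gave these ranges of log2 difference. In Bmal1-/- hypoxia, Pgd -0.061 to 0.048. In wild-type hypoxia, G6pdx -0.061 to 0.009, Gclm -0.127 to 0.015, Nfe2l2 -0.021 to 0.073, Pgd -0.089 to 0.059 and Slc7a11 -0.073 to 0.072. Between genotypes in hypoxia, Gclc -0.022 to 0.072, and in normoxia, Gclc -0.062 to 0.07, Srxn1 -0.013 to 0.029 and Txnrd1 -0.049 to 0.09. In the difference of hypoxia effects, Gclc -0.039 to 0.093, Nqo1 -0.046 to 0.038 and Pgd -0.054 to 0.094. In the mean hypoxia effect, Nfe2l2 -0.037 to 0.01 and Pgd -0.042 to 0.032. In the mean genotype effect, Gclc -0.016 to 0.05, Gclm -0.022 to 0.064, Hmox1 -0.009 to 0.104, Slc7a11 -0.021 to 0.052, Srxn1 -0.065 to 0.002 and Txnrd1 -0.066 to 0.003. Over all genes, fitting only the groups compared gave 35 fallen in wild-type hypoxia in place of 69, and 294 risen and 555 fallen between genotypes in normoxia in place of 506 and 833. Leaving out 1 library took these as low as 18 (wild-type normoxia 2), 229 (wild-type normoxia 2) and 439 (wild-type normoxia 2), the 138 fallen in Bmal1-/- hypoxia as low as 64 (Bmal1-/- hypoxia 2) and its 464 risen to 303 (Bmal1-/- hypoxia 3), the 251 risen in wild-type hypoxia to 143 (wild-type normoxia 2), the 491 risen between genotypes in hypoxia to 318 (Bmal1-/- hypoxia 2) and the 377 fallen in the mean hypoxia effect to 189 (wild-type normoxia 2). The difference of hypoxia effects had 1 risen gene, 0 with edgeR, a pseudocount of 5 or a mean of at least 50, and 4 with DESeq2. The causes were not tested. Other scalings moved the median of all genes by at most 0.011. No paired analysis was possible because the labels give no link between libraries of different groups. With 2 or 3 libraries per group, no group was large enough for a test of a library far from the others, and hypoxia libraries were all deeper than normoxia libraries.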
